A study of Rattus norvegicus with 9 samples.

Results

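MBD3 peaks over high input background are places where the control DNA itself piled up, so that the MBD3 signal stands on a raised floor. They were taken from the MBD3 ChIP-seq (chromatin immunoprecipitation and sequencing) peak lists of 7 rats. For each peak the local background, in tags, was recovered as (pileup + 1) / fold enrichment − 1. It was divided by the 25th percentile of the same list, its floor, and peaks with a ratio of at least 10 were kept. The rule kept 3428 of 246164 peaks (1.39%). Of these, 3131 were on nuclear chromosomes and 297 on the mitochondrial chromosome, which is described apart. The peaks were thus chosen by their pileup and fold enrichment, so both values, the q value and the background are given as descriptions without a test.

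All rats were male Sprague-Dawley animals with electrodes implanted under isoflurane, a stimulating and recording one in the left lateral amygdala. The stimulated group (4 rats) received 20 min of intra-amygdala current pulses of 400 µA which evoke status epilepticus and serve as a rat model of temporal lobe epilepsy. Diazepam at 20 mg/kg ended the seizures. The sham-operated group (3 rats) had the electrodes without stimulation, and the labels mention no diazepam for it. Pooled entorhinal, perirhinal and piriform cortex with amygdala was collected on day 14, a mixture of cell types that the lists do not separate. The series asks whether MBD3 binding differs between the groups.

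MBD3 is a subunit of NuRD, a complex that joins histone deacetylation to nucleosome remodelling and is found at active and silenced regulatory DNA. Its methyl-CpG-binding domain binds methylated DNA only weakly in mammals. An input library is sheared chromatin sequenced without antibody. It rises where one stretch of a genome assembly collects reads from many copies, as at satellite repeats, ribosomal DNA, collapsed duplications and mitochondrial DNA, and an immunoprecipitate rises there as well. Copy number, repeats, genes and base sequence at the coordinates below were not analysed here, because no build of the genome is named in the labels or headers.

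The 2 groups were set against different inputs, which bears on every value of background. The sham input held 5241067 filtered tags and served 3 lists, and the stimulated input held 33279049 and served 4. ChIP libraries held 2436208 to 3668143 filtered tags in sham and 4812579 to 17960510 in stimulated rats. The floor equalled the genome-wide tag rate in every list. A ratio of 10 therefore stood for 4.20 sham input tags within 150 bp, but for 26.7 stimulated input tags. Ratios moved in steps of 2.38 per sham input tag and of 0.375 per stimulated input tag, so sham ratios near the threshold rest on few tags. Group, input library and depth cannot be told apart in this design. In stimulated rat 3, 78.3% of tags were duplicates, and stimulated rat 1 shared few peaks with other lists, so counts are also given without these 2 libraries.

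The peaks just inside the threshold had ratios of 10.1 to 10.3 in the 7 lists, and those just outside 9.74 to 9.99. The median pileup of the 5 nearest peaks was higher inside than outside in each list, with 30 against 25, 26 against 21 and 18 against 14 tags in sham rats 1 to 3. In stimulated rats 1 to 4 it was 38 against 37, 39 against 31, 18 against 12 and 36 against 27. The nearest peaks thus left no gap in background at the threshold. Sham ratios move in steps of 2.38 per input tag, wider than either range counted next, so the sham counts also reflect these steps. Between ratios of 8 and 10 there were 184 peaks in sham rat 1, 116 in stimulated rat 2 and 104 in stimulated rat 4. Between 10 and 12 these lists held 85, 95 and 108.

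High-background peaks were found in every rat, and their numbers in the groups overlapped. Sham rats 1, 2 and 3 had 590, 533 and 492. Stimulated rats 1, 2, 3 and 4 had 272, 669, 146 and 726. The stimulated lists thus held the 2 highest and the 2 lowest numbers, with all sham lists between them. The mean was 538 ± 49.2 for the 3 sham lists and 453 ± 288 for the 4 stimulated lists (SD). The geometric mean of the stimulated lists was 0.694 times that of the sham lists (two-sided exact permutation p = 0.571, adjusted over 3 tests 0.686). The smallest p that 35 splits allow is 0.0571. Per 1000000 filtered ChIP tags there were 161, 196 and 202 peaks in sham rats and 15.1, 87.7, 30.3 and 58.8 in stimulated rats. The ChIP libraries and input of the stimulated rats were deeper. The divisor alone separated the groups, at 2436208 to 3668143 tags in sham and 4812579 to 17960510 in stimulated rats. All peaks numbered 32399, 14221 and 12269 in sham and 9500, 109947, 2754 and 65074 in stimulated rats. The same scaling was not computed for all peaks, so the scaled numbers are no result about high-background peaks. Group and depth cannot be told apart in this scaling. Without stimulated rats 1 and 3 the log10 difference of the unscaled numbers of high-background peaks turned from −0.159 to 0.113.

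As a share of the list the high-background peaks were a minority everywhere. They made up 1.82%, 3.75% and 4.01% of the lists of sham rats 1 to 3. The shares were 2.86%, 0.608%, 5.30% and 1.12% in stimulated rats 1 to 4. The longest list, of stimulated rat 2, had the smallest share (95% Clopper-Pearson interval 0.563 to 0.656%), and the shortest, of stimulated rat 3, the largest (4.49 to 6.21%). These intervals cover counting error only. The share averaged 3.19% ± 1.20 in sham and 2.47% ± 2.12 in stimulated rats (SD over 3 and 4 lists, two-sided exact permutation p = 0.686, adjusted 0.686). Its direction turned at a ratio of at least 20, where the difference was 0.0641 percentage points, and to 2.20 when peaks under a −log10 q of 3 were left out.

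The genome covered by these peaks was small. It came to 227641, 197872 and 152801 bp in sham rats 1 to 3 and to 76197, 257512, 38062 and 235134 bp in stimulated rats 1 to 4. The stimulated geometric mean was 0.605 times the sham one (two-sided exact permutation p = 0.571, adjusted 0.686, 3 against 4 lists), again with the sham rats inside the stimulated range. The direction turned without stimulated rats 1 and 3, with a log10 difference of 0.112.

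**Figure D1:**
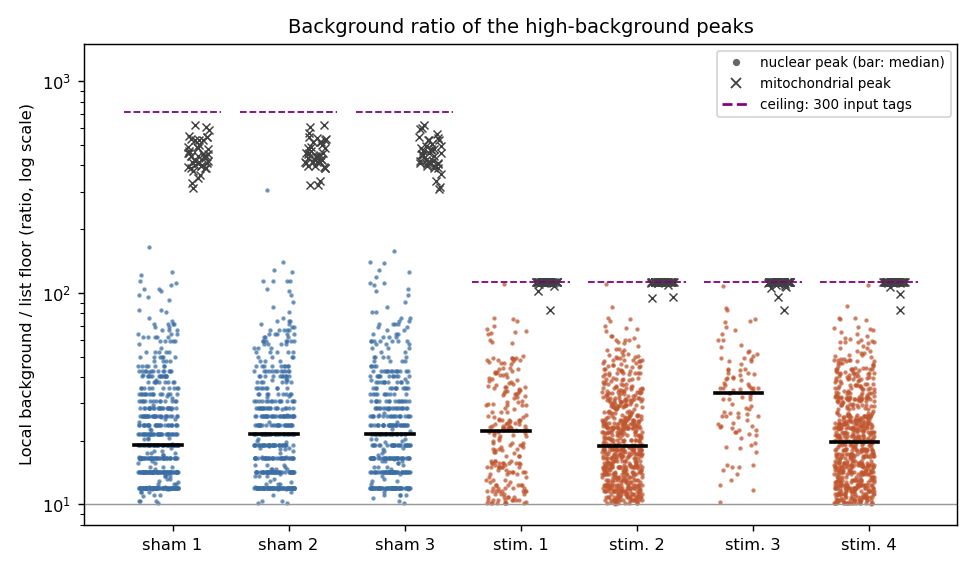
Local background of each high-background peak divided by the floor of its list (log scale), for 7 lists. Dots are nuclear peaks with a bar at their median, crosses are mitochondrial peaks, the grey line is the threshold of 10 and dashed lines mark the ratio that 300 input tags give. The median mitochondrial peak sits on that ceiling in each stimulated list, and all mitochondrial peaks lie under it in the sham lists.

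The mitochondrial chromosome carried the strongest background of all. The mitochondrial genome is a small circle present in many copies per cell and without nucleosomes. All 297 mitochondrial peaks in the 7 lists passed the rule. Sham rats 1 to 3 had 45, 42 and 40 of them, and stimulated rats 1 to 4 had 42, 37, 49 and 42, so these numbers were alike across libraries that differed several-fold in depth. Peaks covered 84.1%, 100% and 62.3% of the 16313 bp in sham rats, and 94.0%, 100%, 98.8% and 95.7% in stimulated rats. In sham rat 2 and stimulated rat 2 the whole chromosome was 1 interval with many summits.

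Mitochondrial pileups were close to the highest value the counting allows in sham rats 1 and 2 and stimulated rats 1, 2 and 4, and lower in sham rat 3 and stimulated rat 3. With 1 tag kept per position and tags extended to 150 bp, no more than 300 tags can cover a base. The median mitochondrial pileup was 265, 291 and 197 tags in sham rats 1 to 3, and 295.5, 297, 149 and 271 in stimulated rats 1 to 4. Exactly 300 was reached by 7, 11 and 1 peaks of stimulated rats 1, 2 and 4. Of 151 peaks with a pileup of at least 270 in the whole series, 151 were mitochondrial, and stimulated rat 3 had none of them.

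The input met the same ceiling. In the stimulated lists the ratio cannot exceed 112.4 when 300 input tags are scaled, and 132 peaks stood at that value, all of them mitochondrial. The median mitochondrial ratio was 112.4 in each stimulated list. The sham ceiling was 713.6, and the median mitochondrial ratios of sham rats 1 to 3 were 445, 444 and 450, with 623 the highest. A mitochondrial ratio at the ceiling in the stimulated lists is therefore a lower limit.

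Where both libraries stand at the ceiling, fold enrichment is fixed by the scaling of the input. Such a base would give a fold of 1.85, 4.31 and 2.68 in stimulated rats 1, 2 and 4. The median mitochondrial fold in these lists was 1.82, 4.27 and 2.45. In stimulated rat 3 the ceiling value was 6.78 and the median 3.40, with pileups of 103 to 201 tags. Sham rats 1 to 3 had median folds of 1.95, 2.94 and 2.19 against 1.43, 1.92 and 2.14 at the ceiling.

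**Figure D2:**
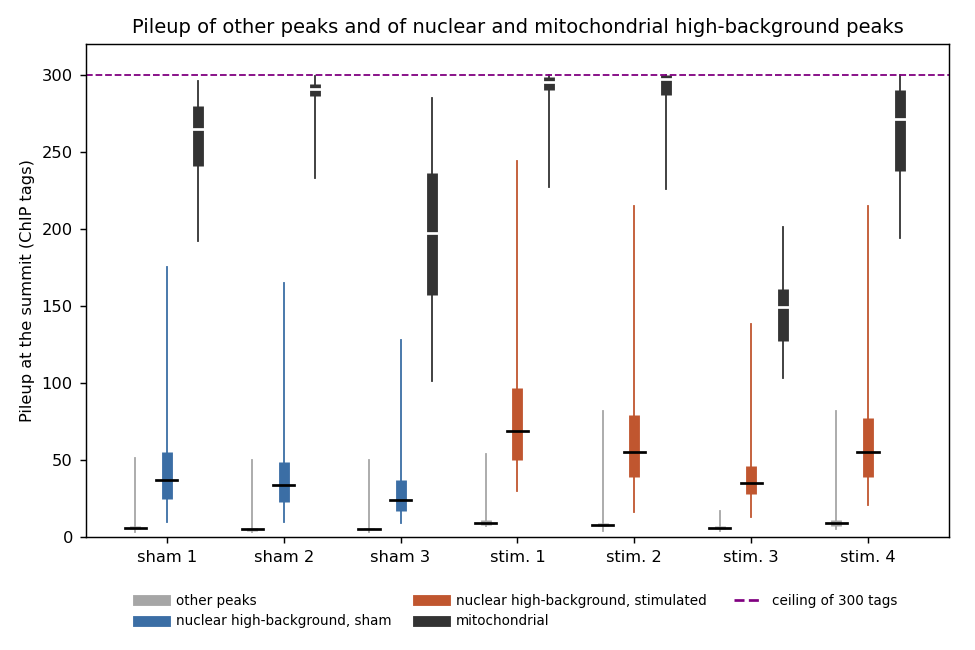
Pileup at the summit (ChIP tags) of other peaks (grey), nuclear high-background peaks (blue for sham, orange for stimulated) and mitochondrial peaks (black) in 7 lists. Thin lines span the range, thick bars the interquartile range and short lines the median. Nuclear high-background peaks have medians of 24 to 68.5 tags, above the medians of 5 to 9 tags of other peaks.

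On nuclear chromosomes the tallest peaks of each list were of the high-background kind, though the 2 kinds overlapped in pileup. Their median pileup was 37, 34 and 24 tags in sham rats 1 to 3, and 68.5, 55, 35 and 55 in stimulated rats 1 to 4. Other peaks had medians of 5 to 9 tags. The lowest nuclear high-background peaks had 9 to 30 tags, and the highest other peaks 17 to 82. Of the 100 tallest nuclear peaks, 100, 100 and 99 were high-background peaks in sham rats 1 to 3, and 100, 100, 97 and 100 in stimulated rats 1 to 4. Of the 100 peaks with the highest fold enrichment, mitochondrial ones not excluded, 6, 16 and 4 were high-background peaks in sham rats 1 to 3. Such peaks made up 1.82%, 3.75% and 4.01% of these lists. In stimulated rats 1 to 4 the numbers were 0, 0, 1 and 0, beside shares of 2.86%, 0.608%, 5.30% and 1.12%. Background is the divisor of fold, so these numbers are descriptions. A pileup of at least 200 was found for 10 nuclear peaks, in stimulated rats 1, 2 and 4. The tallest had 244 tags, in stimulated rat 1 on chromosome 19 at 67047805 to 67048956.

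Fold enrichment over this background fell into 2 ranges. The median over nuclear high-background peaks was 5.11, 5.73 and 4.56 in sham rats 1 to 3. It was 4.23 in stimulated rat 2, but 2.11, 2.60 and 2.58 in stimulated rats 1, 3 and 4. Other peaks had medians of 4.08 to 5.05 in the 7 lists. A fold of at least 4 was reached by 71.4%, 80.9% and 63.9% of nuclear high-background peaks in sham rats 1 to 3. The shares in stimulated rats 1 to 4 were 0.435%, 60.8%, 6.19% and 6.73%. Among other peaks they were 52.2% to 89.7%. The median −log10 q of nuclear high-background peaks was 13.1, 13.5 and 6.95 in sham and 3.68, 15.9, 2.12 and 6.74 in stimulated rats, against 1.87 to 4.41 for other peaks. Of the 100 peaks with the highest −log10 q, 65 to 92 per list were high-background peaks, the mitochondrial ones included.

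In stimulated rats 1, 3 and 4 median fold was lower in each higher class of background. From the floor to ratios of 50 or more, the median nuclear fold went from 4.10 to 1.64 in stimulated rat 1. It went from 5.05 to 2.11 in stimulated rat 3, and stimulated rat 4 went from 5.02 to 2.32. The last class held 14 and 17 peaks in stimulated rats 1 and 3, and at ratios of 20 to 50 the medians of these lists were 2.01 and 2.61. The fall was smaller in stimulated rat 2, from 4.96 to 3.80. In sham rats 1 and 2 it was higher at ratios of 10 to 20 than at the floor, 5.31 against 4.64 and 6.08 against 4.93, and it was 4.15 and 4.55 at 50 or more. In sham rat 3 it was 5.02 at the floor, 4.81 at ratios of 10 to 20 and 3.75 at 50 or more. Pileup rose with background in each list, with Spearman's rho across nuclear high-background peaks of 0.70 to 0.90. Peaks of a list share their libraries, and pileup, fold and background all enter the rule. Background sets the classes and is also the divisor of fold, so fold by class is a description and no result about binding.

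**Figure D3:**
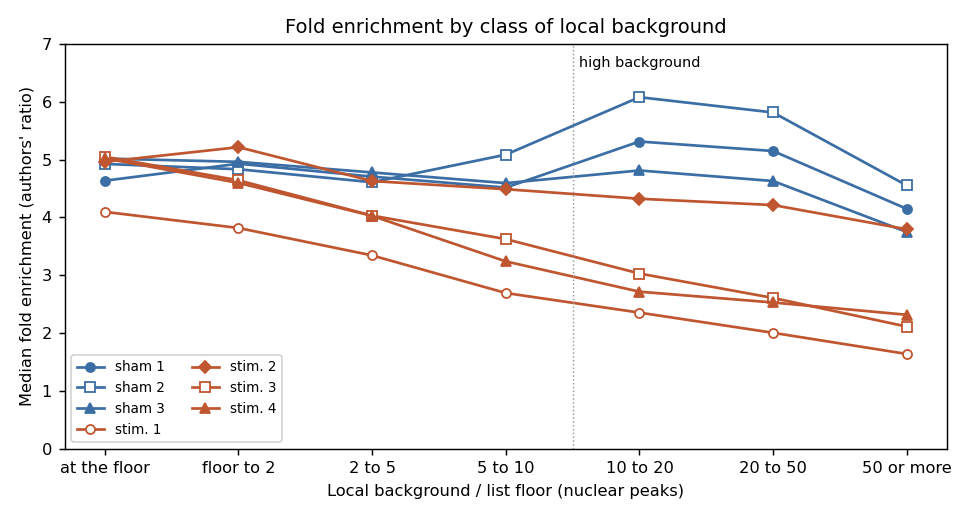
Median of the authors' fold enrichment (y axis, a ratio) of nuclear peaks in 7 classes of local background (x axis, multiples of the list's floor). Each line is 1 list, blue for sham and orange for stimulated, and classes right of the dotted line hold high-background peaks. Stimulated rats 1, 3 and 4 fall to 1.64, 2.11 and 2.32 in the last class, and the other 4 lists end between 3.75 and 4.55. Background is also the divisor of fold, so the 2 axes are not independent.

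The highest nuclear background lay near the start of chromosome 3, at 43082 to 43612, and it did so in all 7 lists. The ratio there was 164, 307 and 157 in sham rats 1 to 3, with pileups of 107, 120 and 71 tags and folds of 2.19, 1.78 and 2.27. In stimulated rats 1 to 4 the ratio was 110.5, 110.5, 107.5 and 109.4, just under the ceiling of 112.4. Pileups were 240, 208, 138 and 176 tags there and folds 1.50, 3.04, 3.27 and 1.62. The peaks with the highest fold lay elsewhere. In sham rats 1 and 2 they were on chromosome 1 at 188040873 to 188044847 (14.7-fold, ratio 12.1) and at 187767069 to 187768135 (14.6-fold, ratio 14.3).

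High-background peaks were wider and more often split into several summits than other peaks, both of which the rule did not use. On nuclear chromosomes their mean width was 886, 773 and 526 bp in sham rats 1 to 3 and 385, 825, 269 and 537 bp in stimulated rats 1 to 4. Other peaks averaged 164 to 194 bp. These means count an interval once for each of its summits. With each nuclear interval counted once, the means were 566, 531 and 413 bp in sham and 325, 576, 255 and 422 bp in stimulated rats, against 164 to 190 bp for other intervals. The mean log2 ratio of widths was 1.60 without the mitochondrial chromosome (exact sign-flip permutation test over 7 lists, two-sided p = 0.0156, wider in 7 of 7 lists). It was 2.58 ± 0.75 with it (SD, adjusted over 4 tests 0.0208, exact), and 1.43 with it when each interval was counted once. Nuclear high-background intervals held 1.73, 1.61 and 1.40 summits in sham and 1.28, 1.69, 1.15 and 1.42 in stimulated rats, and other intervals 1.00 to 1.01. The mean difference was 0.461 without the mitochondrial chromosome and 0.599 ± 0.159 with it (SD, exact sign-flip permutation test, two-sided p = 0.0156, adjusted 0.0208, n = 7). A p of 0.0156 is the smallest that 7 lists allow. The lists of a group share the input that chose the peaks, so the 7 lists are not 7 independent selections, and the sign-flip p-values for width, summits and neighbours may be too small. Pileup is higher at these peaks, and its part in their width was not tested.

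High-background peaks were also clustered. Another interval of the same list lay within 10 kb of 85.9%, 86.2% and 86.1% of them in sham rats 1 to 3, and of 80.0%, 94.1%, 54.6% and 93.3% in stimulated rats 1 to 4. For other peaks these shares were 28.4%, 16.9% and 13.8% in sham and 22.3%, 61.4%, 2.91% and 46.4% in stimulated rats. The mean difference was 55.5 ± 13.5 percentage points (SD, exact sign-flip permutation test, two-sided p = 0.0156, adjusted 0.0208, higher in 7 of 7 lists). For positions near chromosome ends no difference was found at the main setting, and the value depended on the setting. The outermost 1 Mb held 0.870% to 2.24% of high-background peaks and 1.19% to 1.92% of other peaks, a difference of 0.0623 ± 0.605 percentage points (SD, exact sign-flip permutation test, two-sided p = 0.797, n = 7). This last difference was 1.06 points at a ratio of at least 5 (exact sign-flip p = 0.0156). Without the 3 windows of 1 Mb with the most regions, a setting chosen after seeing the data, it was 2.15 (exact sign-flip p = 0.0469). It was −0.0624 at a ratio of at least 20 and −1.40 over the outermost 5 Mb.

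Chromosomes 1 and 13 held 64.1% of the nuclear high-background peaks. Chromosome 1 carried 49.1% of them against 10.8% of all nuclear peaks, and chromosome 13 carried 15.0% against 5.02%. Chromosomes 5, 6 and 11 carried 11, 10 and 6 in all lists together. Nuclear high-background peaks touched 155 windows of 1 Mb, of which 101 held 1 region and 16 held 10 or more.

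Windows on chromosome 1 from 187 to 188 Mb and from 188 to 189 Mb, and on chromosome 13 from 38 to 39 Mb, held 54.8% of the nuclear high-background peaks but 0.411% of the other peaks. By list the share was 55.2%, 62.9% and 63.3% in sham rats 1 to 3 and 61.9%, 53.6% and 53.7% in stimulated rats 2, 3 and 4. It was 4.78% in stimulated rat 1. In 6 of the 7 lists these windows thus held the larger part of the nuclear high-background peaks.

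The fullest window, on chromosome 1 between 187444591 and 187995394, merged into 99 regions over 551 kb. It held 137, 134 and 129 high-background peaks in sham rats 1 to 3, and 3, 166, 30 and 158 in stimulated rats 1 to 4. The median fold there was 5.75, 6.64 and 4.92 in sham rats. In stimulated rats it was 1.62, 4.23, 2.58 and 2.72. Median ratios there were 22.1 to 32.6 in the 7 lists. The median pileup of the 3 peaks in stimulated rat 1 was 64 tags, against 47, 41 and 28 in the shallower sham libraries and 61 and 58 in stimulated rats 2 and 4.

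The chromosome 13 window had 64 regions between 38583694 and 38962677 across the 7 lists. High-background peaks numbered 75, 85 and 69 in sham rats and 5, 104, 10 and 98 in stimulated rats, with median folds of 5.30, 5.65 and 4.43 and of 1.53, 4.20, 3.07 and 2.61. In both windows stimulated rat 1 had the lowest fold, and its median ratios of 27.3 and 35.2 were among the highest.

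Median fold of high-background peaks inside the 3 windows was higher than elsewhere on the nuclear chromosomes in sham rats and stimulated rats 2 and 4. It was lower in stimulated rats 1 and 3. Only 11 peaks of stimulated rat 1 lay inside, and several of the differences were small. Inside, the medians were 5.61, 6.09 and 4.65 in sham rats 1 to 3 and 1.54, 4.27, 2.55 and 2.67 in stimulated rats 1 to 4. Elsewhere they were 4.31, 5.11 and 4.44 in sham and 2.12, 4.20, 2.68 and 2.49 in stimulated rats.

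Other windows also held few high-background peaks in stimulated rat 1. Chromosome 12 between 5485252 and 5792464 held 18, 18 and 15 high-background peaks in sham rats and 2, 22, 0 and 18 in stimulated rats. Chromosome 17 between 59049550 and 59379895 held 18, 16 and 14 in sham rats and 0, 25, 0 and 17 in stimulated rats. Stimulated rat 3, the shortest list, had none in either. Peaks of any kind of stimulated rat 1 numbered 6 in the chromosome 12 window of 1 Mb and 20 in that of chromosome 17.

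Stimulated rat 1 had its high-background peaks in other windows. Chromosome 1 from 56 to 57 Mb held 41 of them, against 9, 8 and 7 in sham rats and 15, 1 and 29 in stimulated rats 2, 3 and 4. Chromosome 17 from 91 to 92 Mb held 22, against 6, 4 and 2 in sham rats and 2, 4 and 10 in the other stimulated rats. In stimulated rat 1 the median fold in these windows was 2.12 and 2.22, and the median pileup 67 and 89.5 tags. High-background regions of stimulated rat 1 alone numbered 84 of 727 (11.6%), and 77 of them met no peak of any kind in another list. Of the 176203 regions merged from all peaks, 8908 (5.06%) came from this rat alone. Few of its other nuclear intervals (3.42%) met another list, so lone peaks were common in this list. A further 55 regions (7.57%) had high-background peaks in stimulated rats 1 and 4 alone, against 279 (0.158%) of the regions merged from all peaks.

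**Figure D4:**
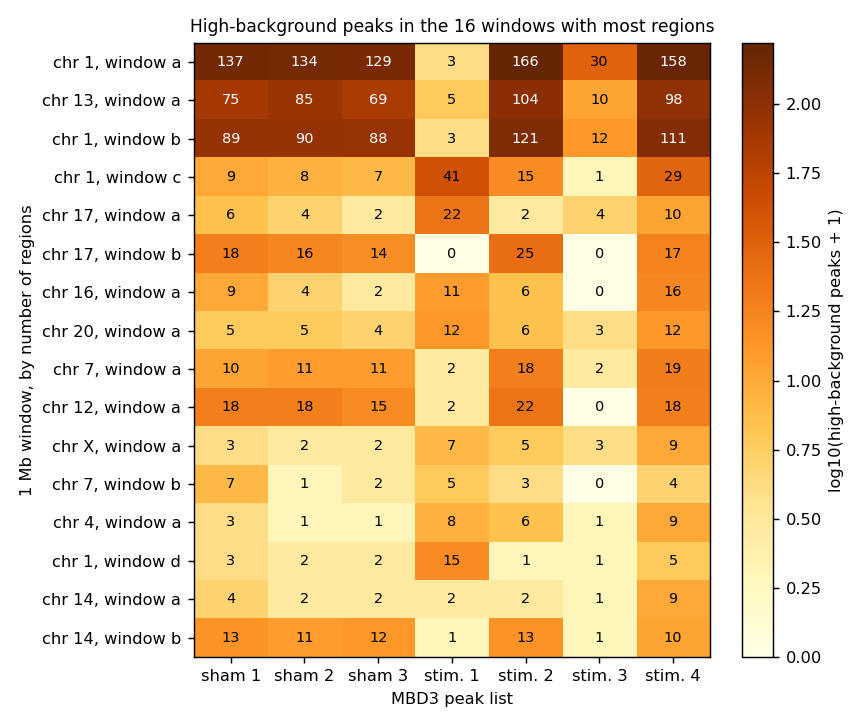
Number of high-background peaks per list (columns) in the 16 windows of 1 Mb with the most merged regions (rows, by chromosome, with letters for windows of a chromosome). Colour gives log10 of the number plus 1. The first 3 rows hold 69 to 166 peaks in the sham lists and in stimulated rats 2 and 4, but 3 to 5 in stimulated rat 1.

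High-background peaks recurred between rats far more often than other peaks of the same lists. On nuclear chromosomes 97.4%, 99.1% and 99.7% of their intervals in sham rats 1 to 3 met a peak of another list by at least 1 bp. In stimulated rats 1 to 4 the shares were 58.8%, 98.8%, 98.8% and 96.9%. For other peaks they were 59.0%, 65.6% and 70.1% in sham rats and 3.42%, 37.8%, 9.98% and 52.2% in stimulated rats. In 42 of 42 ordered pairs of lists the share was higher for high-background peaks. With the summit of a peak required to lie inside a peak of another list, which leaves out the width of the first peak but not of the second, the shares were 53.5% to 99.8% for high-background and 2.23% to 68.6% for other peaks. Lists of 1 group share an input, so these shares carry no p.

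Sharing crossed the groups. Of the high-background intervals of sham rats 1 to 3, 95.0%, 98.2% and 99.4% met a peak of stimulated rat 2, and 93.4%, 94.7% and 97.7% one of stimulated rat 4. In the other direction 91.6%, 90.7% and 82.8% of those of stimulated rat 2 met sham rats 1, 2 and 3, and 76.9%, 75.6% and 69.8% of those of stimulated rat 4. Stimulated rat 3 met sham rats 1 to 3 with 69.8%, 69.8% and 67.4% of its 86 intervals. Stimulated rat 1 met them with 10.2%, 8.56% and 8.02% of its 187, and stimulated rat 4 with 57.8%.

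The few peaks that stimulated rats 1 and 3 shared with sham rats were to a large part of this kind. For stimulated rat 1, 46 nuclear intervals met a sham list and 20 of them (43.5%) were high-background, against 2.00% of all its nuclear intervals. In stimulated rat 3 the numbers were 63 of 167 (37.7%), against 3.19%. In stimulated rats 2 and 4 they made up 1.78% and 2.84% of the intervals shared with sham rats, and 0.386% and 0.812% of all.

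**Figure D5:**
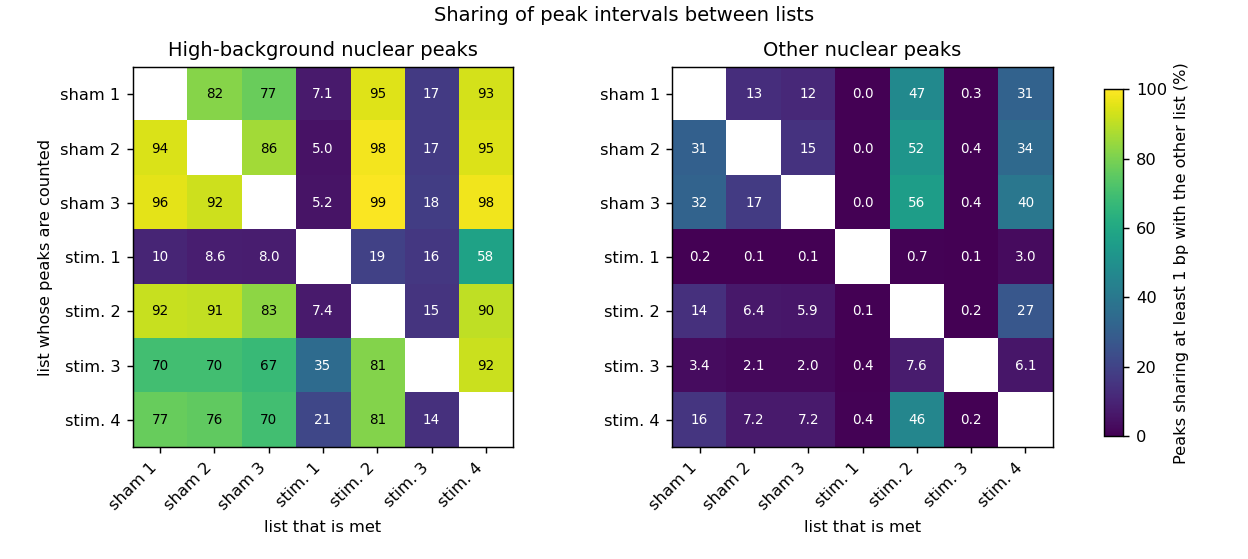
Percent of nuclear intervals of 1 list (rows) that share at least 1 bp with a peak of another list (columns), for high-background peaks (left) and other peaks (right). Among sham lists and stimulated rats 2 and 4 the left panel runs from 69.8% to 99.4% and the right panel from 5.94% to 55.7%.

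Merging the high-background peaks of all lists gave 727 regions, 726 of them nuclear with a median width of 327 bp. A high-background peak was present in 1 list alone in 230 regions (31.6%), whereas 73.7% of the regions merged from all peaks came from 1 list. It was present in 5 or more lists in 216 regions (29.7%), against 0.764% of all regions. The commonest pattern, in 162 regions, was a high-background peak in the 3 sham rats and stimulated rats 2 and 4 and in no other list. The share of merged regions with a high-background peak rose with recurrence. It was 0.0870% of regions in 1 list, 24.2% in 5 lists, 65.4% in 6 and 100% of the 13 regions in all 7 lists. A region counted when any of its peaks was high-background, and a region in more lists holds more peaks. Lists of a group also share the input that sets the background. Part of the rise therefore follows from the counting, and how much was not tested.

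A high-background peak in every list was found in 13 of 727 regions (1.79%). Of the 176203 regions merged from all peaks, 13 (0.00738%) had a peak in every list. The 13 high-background regions were the mitochondrial chromosome and 12 nuclear regions, 3 of them on chromosome 1 and 2 each on chromosomes 7 and 13. After the chromosome 3 region the next by its lowest ratio was on chromosome 1 at 188256182 to 188256869. Its ratio was 112, 128 and 128 in sham rats 1 to 3 and 75.3, 75.7, 83.2 and 75.7 in stimulated rats 1 to 4. Its pileups at those peaks were 175, 154 and 115 tags in sham and 165, 205, 67 and 215 in stimulated rats, with folds of 5.19, 5.34 and 4.44 and of 1.52, 4.35, 2.05 and 2.84. Unscaled pileup in stimulated rat 1 was in the range of the sham rats there, and fold was the lowest of the 7 lists. Its ChIP library was deeper, with 17960510 filtered tags against 2436208 to 3668143 in sham rats, so equal pileups are not equal signal.

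The other nuclear regions of this set lay on chromosomes 1, 7, 8, 12, 13, 14 and 20. The chromosome 8 region spans 110210312 to 110210792, where the ratio was 52.3, 52.3 and 80.9 in sham and 30.0, 31.8, 31.5 and 31.1 in stimulated rats. Folds there were 4.70, 5.64 and 3.21 in sham and 1.58, 5.03, 3.27 and 3.30 in stimulated rats. On chromosome 20 at 42616741 to 42617353 folds were 8.15, 4.33 and 4.70 in sham and 1.80, 8.49, 2.75 and 6.53 in stimulated rats. The lowest of these came from stimulated rat 1, whose ratio of 49.1 was the highest of the 7. Without stimulated rat 1 the count of regions in every list was 49, and without stimulated rats 1 and 3 it was 213.

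A high-background peak in all stimulated and no sham rats was found in 6 of 727 regions (0.825%). Among the 176203 regions merged from peaks of any kind, this pattern was also found in 6 (0.00341%). In none of the 6 was there a sham peak of any background. The first by lowest ratio was on chromosome 19 at 67047739 to 67048956, with ratios of 63.7, 68.2, 59.9 and 65.2 in stimulated rats 1 to 4. Pileups there were 244, 80, 59 and 154 tags and folds 2.64, 1.90, 2.49 and 2.36. The close ratios follow from the input that these lists share. Pileup followed the order of ChIP depth, which was 17960510, 7631096, 4812579 and 12357373 filtered tags. The chromosome 10 region at 78004935 to 78005229 had ratios of 48.3, 54.3, 47.6 and 54.7. The rest were on chromosome 4 within 209834654 to 209839801, where 8, 7, 5 and 7 high-background peaks stood in stimulated rats 1 to 4. Leaving out stimulated rat 2 gave 17 such regions, leaving out stimulated rat 3 gave 13, and 84 were found without stimulated rats 1 and 3. Background in the sham input is not known where no sham peak was listed.

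The reverse pattern, a high-background peak in all sham and no stimulated rats, was found in 20 of 727 regions (2.75%). For peaks of any kind it was found in 48 of 176203 merged regions (0.0272%). None of the 20 remained specific to sham rats when peaks of any background were counted. On chromosome 13 at 92983147 to 92983398 the ratio was 23.8, 23.8 and 21.4 in sham rats 1 to 3. Stimulated rats 2 and 4 had peaks there with a ratio of 7.12 each, with folds of 5.97 and 3.72 against 2.75, 3.56 and 3.28 in sham rats. On chromosome 1 at 57194761 to 57195081 the sham ratios were 14.3, 16.7 and 19.0 and those of stimulated rats 2 and 4 both 4.57, with folds of 11.8 and 8.67. The count was 31 and 32 without sham rats 2 and 3, and 42 at a ratio of at least 5.

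The background ratio of a region is computed from the input, which the lists of a group share, so its likeness within a group follows from the construction. Between groups, over nuclear regions with a peak in both lists, Spearman's rho of the ratio was 0.58 to 0.75 (19 to 479 regions). ChIP pileups of sham rats 1 to 3 had rho of 0.53, 0.54 and 0.56 with those of stimulated rat 1 and of 0.88, 0.87 and 0.81 with stimulated rat 2. With stimulated rat 3 these were 0.74, 0.73 and 0.78, and with stimulated rat 4 0.86, 0.82 and 0.80. Fold enrichment had rho of 0.47 to 0.66 among sham pairs and of −0.34 to 0.09 between groups. Regions are not independent replicates, fold contains the shared input, and these coefficients are descriptions.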

How the data were processed

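Lists of MBD3 peaks from 7 rats (3 sham, 4 stimulated, by the treatment label) were used. Replicates are numbered in accession order. Each list is a separate rat per the labels. MACS2 2.1.0.20141030, Bowtie 1.0.0 and cutadapt 1.7.1 were used, per the submitters' processing notes. Per the file headers, peaks were called per rat against the group's input, with tags extended to 150 bp, 1 tag kept per position, the larger library scaled to the smaller, an effective genome of 1.87 Gb, local background over 1 kb and 10 kb, and a q threshold of 0.1. The deposited pileup is a signal in tags, the deposited fold enrichment a ratio to local background, and −log10 p and −log10 q are as the authors' caller gave them. Depth was read from the headers, and ChIP libraries were the smaller in every list.

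Background was computed as stated in the report. It was a whole number of input tags (within 0.02 of a tag) for 86.1% to 94.5% of the peaks kept in a list, as a 150 bp window gives. Peaks overlapping by at least 1 bp were merged. Groups were compared by exact permutation over 35 splits, with p as 2 times the smaller tail, and high-background with other peaks by exact sign-flip permutation over 7 lists. Benjamini-Hochberg adjustment covered 3 and 4 tests. Named regions were those in all 7 lists, up to 5 of each group-specific pattern ranked by lowest ratio, up to 5 windows with most regions, and in each list the peaks of highest ratio and highest fold. The members, lists and rules were chosen with earlier results of these data known. Functions were tested on simulated data (Python 3.11.15, numpy 2.4.6, pandas 2.3.3, scipy 1.17.1). Other settings changed the threshold, the floor, the q limit, the merging, the overlap and the rats included. The input samples entered through the authors' peak calling. Peaks were not assigned to genes.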

Additional observations from a re-analysis of the deposited data

Results flagged for a closer look

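Of 17 measures taken over the stimulated lists, 3 set a single rat far apart from the remaining ones. Chance does so for about 1 in 20 single measures. The 17 measures are not independent, so the count of 3 cannot be set against that rate. Of these 3, the first is a share by fold, which the rule used, and the other 2 concern the same rat. Stimulated rat 2 had 60.8% of its nuclear high-background peaks at a fold of at least 4, against 6.73% in the nearest other stimulated rat. In stimulated rat 1, 4.78% of nuclear high-background peaks lay in the 3 densest windows, against 53.6% in the nearest other rat. In stimulated rat 1, 58.8% of these intervals met a peak of another list, against 96.9% in the nearest other rat.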

How the results depend on the processing

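No group comparison passed the threshold under any setting, which p as 2 times the smaller tail could not do with 7 rats or fewer. The difference in share of the list turned to 0.0641 at a ratio of at least 20, to 2.20 without peaks under a −log10 q of 3, and to 0.332 without the 3 densest windows. Without stimulated rats 1 and 3 the log10 differences were 0.113 for number and 0.112 for covered length. The differences in width, summits per interval and neighbours were then 2.44, 0.622 and 55.7, and exact p was 0.0625, the smallest that 5 lists allow. The difference at chromosome ends was 1.06 at a ratio of at least 5, −0.0624 at 20, −1.40 over the outermost 5 Mb, and 2.15 without the 3 densest windows (exact p = 0.0469). It ran from −0.0695 to 0.242 with 1 rat left out.

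Regions in all lists, in stimulated rats alone and in sham rats alone numbered 5, 2 and 11 without peaks under a −log10 q of 3. The first was 8 without the densest windows and 213 without stimulated rats 1 and 3, where the second was 84. The third was 42 at a ratio of at least 5. With 1 rat left out they ran from 13 to 49, from 6 to 17 and from 20 to 32. Leaving out stimulated rats 1 and 3, the densest windows or using summits was chosen after seeing the data. No paired analysis was possible because the replicate numbers come from accession order and pair no rats. Few tags limit sham ratios near the threshold, and the ceiling of 300 tags limits mitochondrial ratios.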
